A study of Mus musculus with 18 samples.

Results

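The kinesin motor family was taken as every gene whose mouse symbol is Kif with a number and at most a letter a to c, or Kifc with a number. The deposited tables held 41 such genes among 47069. Of these, 36 had at least 1 count in at least 1 of the 16 oocytes used. Kif12, Kif2b, Kif5a, Kif6 and Kifc2 had no count in any of them. A further 4 genes, Kif19a, Kif7, Kif3c and Kif1a, had 1 to 4 counts in all. A filter on low counts, applied to all genes alike, was passed by 27 of the 41, and 17 reached a mean of 20 CPM in at least 1 group. CPM, the unit of level below, is a gene's share of the counts in a library after scaling for library composition.

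Kinesins are motor proteins that use ATP to walk along microtubules or to take them apart at their ends. In the oocyte, one set of them builds the meiotic spindle, moves chromosomes and closes the division plane of the polar body, and another carries vesicles, mitochondria and mRNA. Their mRNAs are made while the oocyte grows, since transcription stops before meiosis resumes, and are then stored, translated or degraded as the oocyte matures.

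The data are RNA sequencing of single oocytes from C57BL/6JAusb mice at 2 stages. Germinal vesicle (GV) oocytes are held in prophase and still have a nuclear envelope. Metaphase II (MII) oocytes have matured and carry an assembled spindle. The donors were 4 weeks old (young control), 12 months old (aged control), or 12 months old and given nicotinamide mononucleotide (NMN), a precursor of NAD, at 2 g/L in the water they drank for 4 weeks (aged NMN), and both control groups drank plain water. Every library is 1 oocyte, and per the labels it was made from the liquid above the spun-down nucleus, a step that acts on GV oocytes, since MII oocytes have no nucleus. No label names an animal. Each of the 6 groups is therefore a single sample of a condition, groups were not tested against each other, and SD below is the spread between oocytes. Among GV oocytes 2 came from young controls, 2 from aged controls and 3 from aged NMN mice, and each MII group had 3 oocytes.

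The 16 libraries held 2756181 to 5586894 counts, so that 3 counts, taken as the detection floor, lay between 0.468 and 1.19 scaled CPM. Oocytes numbered 2-1 or 2-2 are of the batch the titles call batch 2, and the others were read as batch 1. That reading is in doubt for 2 of them, since the title of MII aged NMN 2 ends in batch 2 and GV young control 1 holds the same values as a library titled batch 2-1. MII aged NMN 1 and 2 stood apart from the rest, with 6444 and 5679 genes with a count, against 7725 in MII aged NMN 2-1 and 8539 to 13816 in the other 13 oocytes. Mitochondrially encoded genes took 43.0 and 33.2% of their counts. That share was 24.4% in MII young control 1 and 2.76 to 12.6% in the remaining oocytes. The oocyte genes Gdf9, Bmp15, Btg4 and Zp2 had counts in 16 of 16 oocytes. Of the other listed oocyte markers, Mos had counts in 14 oocytes and Ooep, Zp1 and Zp3 in 15. Each of these was at 0 CPM in at least 1 MII oocyte. Transcripts known from other ovarian cells were also present. Of 12 cumulus and granulosa markers 10 had counts (Amh and Foxl2 were at 0), and their sum was 0 to 326 CPM, with the highest in MII young control 2-1. Of 6 immune markers 4 had counts (Ptprc and C1qa were at 0), and their sum was 9.84 and 237 CPM in GV aged control, 21.6 to 172 CPM in GV aged NMN and 0 to 43.0 CPM elsewhere, with C1qb reaching 227 CPM. Of 5 endothelial markers 4 had counts, with sums of 0 to 61.9 CPM, and of 6 theca and stroma markers 2 had counts, with sums of 0 to 15.9 CPM.

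In the GV young control oocytes 23 and 19 kinesins had a count, in GV aged control 30 and 26, and in GV aged NMN 26, 32 and 20. In the MII young control oocytes 17, 28 and 29 kinesins had a count, in MII aged control 24, 25 and 24, and in MII aged NMN 13, 10 and 18. The MII aged NMN oocytes 1 and 2 thus held the fewest kinesins of the 16, and MII young control 1 the fewest of the 6 MII control oocytes. MII aged NMN 1 and 2 also held the fewest genes of all kinds, whose part in the difference was not tested. MII young control 1 held 9106 genes with a count, while MII aged control 2-1 held 8539 genes and 24 kinesins.

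**Figure D1:**
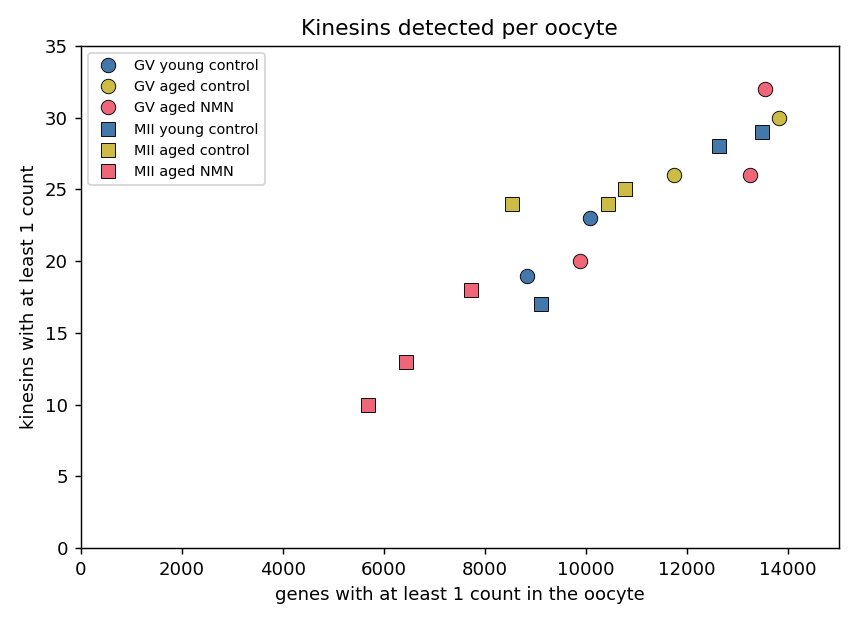
Number of kinesins with at least 1 count (y axis) against number of genes with at least 1 count (x axis) in each of 16 oocytes, coloured by condition, with circles for GV and squares for MII. MII aged NMN oocytes lie at the lower left with 10 to 18 kinesins, and GV aged NMN 2 has the most with 32. At 3 counts or more (not drawn), GV aged NMN 2 and GV aged control 1 both hold 29, and the MII aged NMN oocytes 12, 8 and 18.

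The kinesins that led the family were the same few in most groups, compared per transcript length as TPM, the deposited length-corrected share of transcripts. In GV young controls Kif23 at 45.1 ± 21.5 TPM (SD, n = 2) and Kif22 at 43.9 ± 5.11 TPM stood first. In GV aged controls Kif3a was at 50.1 ± 16.9, Kif23 at 48.7 ± 34.9 and Kif17 at 37.6 ± 41.8 TPM, which did not differ beyond their spread. In GV aged NMN oocytes Kif17 led at 58.5 ± 45.2 TPM, followed by Kif3a at 44.1 ± 22.0 and Kif22 at 41.0 ± 6.08 TPM (n = 3), again within the spread. In MII young controls Kif3a at 155 ± 32.6 and Kif23 at 136 ± 101 TPM were followed by Kif2a at 46.4 ± 56.6 TPM. The same pair led in MII aged controls, at 87.5 ± 38.5 and 81.5 ± 27.2 TPM, with Kif4 next at 24.3 ± 9.05 TPM, and in MII aged NMN oocytes, where Kif23 was at 42.6 ± 54.5 and Kif3a at 20.8 ± 10.4 TPM. The share of kinesin TPM held by spindle and chromosome kinesins was 33.0 to 85.5% in 15 oocytes and 11.9% in MII aged NMN 2.

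**Figure D2:**
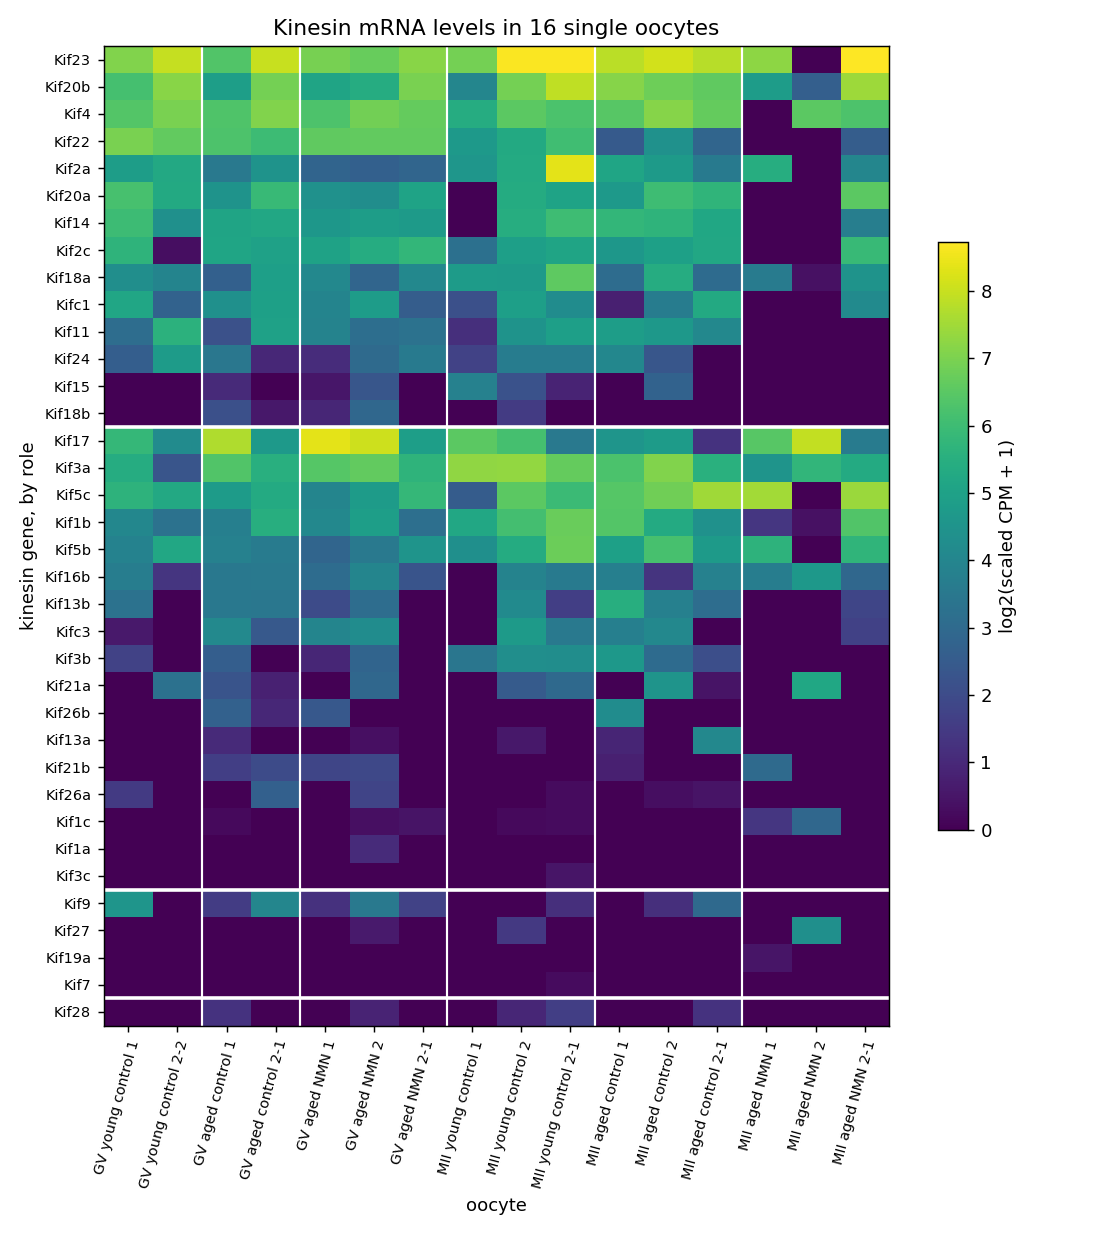
Level of each of the 36 kinesins with at least 1 count in each of 16 oocytes (columns, by group), as log2 of scaled CPM + 1. Rows are grouped by role from top to bottom as spindle and chromosome, transport, ciliary, and unassigned Kif28. Dark cells are at or near 0; MII aged NMN 1 and 2 hold dark cells in most spindle kinesins, and Kif22 darkens from the GV to the MII columns.

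The ends of the mRNAs are shown first, because maturing oocytes use signals there to lengthen or shorten poly(A) tails. A cytoplasmic polyadenylation element (CPE, searched as TTTTAT or TTTTAAT) is bound by CPEB proteins, and the hexamer AATAAA or ATTAAA is the poly(A) signal. In the last 100 bases of 1 annotated transcript per gene, 9 of 40 kinesins (22.5%) held a CPE, against 17.3% of 20254 coding genes. A poly(A) signal lay there in 29 of 40 (72.5%) and in 78.4% of all. The kinesins with a CPE were Kif11, Kif18a, Kif20b, Kif22, Kif26a, Kif26b, Kif27, Kif9 and Kifc1. Windows of 30 bases near the mRNA end, from the GRCm38 annotation of GENCODE, are given for the members whose levels are set against each other below, the first 5 with a CPE and the last pair without. Capitals mark the CPE and the poly(A) signal.
Kif22, chr7:127027731-127027760, minus strand: acgtgttgtgtaaatacagtTTTTATtcca
Kif11, chr19:37421830-37421859, plus strand: aattttttaaATTAAAttaTTTTAATtttt
Kif18a, chr2:109341703-109341732, plus strand: tgctaataTTTTATtacttggtatATTAAA
Kif20b, chr19:34975700-34975729, plus strand: gtatataaTTTTAATtcAATAAAtatatca
Kifc1, chr17:33875708-33875737, minus strand: agacatgaTTTTATtgggtgaacaatattt
Kif23, chr9:61917281-61917310, minus strand: acaactgaAATAAAaaggcactaagagatg
Kif5c, chr2:49774748-49774777, plus strand: aactggacAATAAAactgagttaaactttg
The Kif22 transcript carries a CPE 10 bases from its end and no poly(A) signal in its last 100 bases. Its annotated 3′ untranslated region is 62 bases long, against 384 bases in Kif23 and 3621 bases in Kif5c. A match describes these letters and is not a measured site.

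Starts of mitotic kinesin genes often carry a CHR (TTTGAA, searched on both strands, TTCAAA on the other), the element through which the DREAM and MuvB complexes time cell cycle genes. In the 250 bases before the RefSeq starts (GRCm38.p6) it was found at 8 of 36 kinesin starts, and at 16.0% of 32851 starts of all genes. These 8 starts belong to 8 of the 32 kinesin genes with a listed start. CCAAT, searched on both strands, was found at 16 of 36 kinesin starts (15 of 32 genes) and at 33.8% of all starts. The genes with a CHR were not all listed as spindle kinesins, since the role lists used here place Kif1a and Kif26b under transport and Kif27 under cilia. In Kif26b the CHR lay 9 bases from the start. A CHR lay within 19 bases of the RefSeq start in 3 spindle kinesins. In the GENCODE annotation Kif15 begins at 122951046 and Kif22 at 127042471, so their windows lie inside these genes and the distance depends on the start used. The 3 windows are shown with the CHR in capitals.
Kif11, chr19:37376351-37376380, plus strand: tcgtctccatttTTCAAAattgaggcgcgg
Kif15, chr9:122951050-122951079, plus strand: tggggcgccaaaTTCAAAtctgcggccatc
Kif22, chr7:127042421-127042450, minus strand: ggggccccggtaaTTCAAAagagagaagcg

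Of the 15 spindle and chromosome kinesins, 14 passed the filter, and Kif22 separated the stages in CPM in all 3 conditions. Kif22 (ENSMUSG00000030677, GRCm38 chromosome 7, 127027729 to 127042471) encodes the chromokinesin Kid, which binds DNA and pushes chromosome arms outwards on the spindle. It was at 125 and 97.5 CPM in the GV young control oocytes, 77.3 and 62.5 in GV aged control, and 96.9, 97.3 and 97.4 in GV aged NMN. It stood at 25.6, 38.3 and 65.6 CPM in MII young control, 4.58, 20.5 and 6.18 in MII aged control, and 0, 0 and 5.01 in MII aged NMN. In CPM the stages did not overlap in any of the 3 conditions, and the MII aged control oocytes all lay below the MII young control oocytes.

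The means of Kif22 gave log2 ratios of MII over GV of -1.35 in young control, -2.63 in aged control and -5.20 in aged NMN oocytes, on the scale of mean CPM + 1. Aged over young MII controls stood at -1.95, with means of 10.4 ± 8.79 and 43.2 ± 20.5 CPM (n = 3 each), a difference of 4.14-fold. The pooled counts behind these means were 859 and 685 in GV and MII young controls, with exact 95% Poisson intervals of 102 to 116 and 41.8 to 48.6 CPM without scaling. They were 694 and 125 in aged controls (73.7 to 85.6 and 9.78 to 14.0 CPM) and 1034 and 16 with NMN (87.6 to 99.1 and 0.819 to 2.33 CPM). These intervals, like the floors, hold counting error and nothing else. On the TPM scale the young groups overlapped, at 47.6 and 40.3 TPM in GV against 8.95, 25.6 and 60.3 TPM in MII oocytes, and the log2 ratio was -0.46. The MII control groups overlapped on that scale too, with 2.91 to 12.7 TPM in aged against 8.95 to 60.3 TPM in young oocytes. The closely related pseudogene Kif22-ps had no count.

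Kif23 (ENSMUSG00000032254, chromosome 9, 61915905 to 61946774) encodes the motor subunit of centralspindlin, which bundles microtubules at the division plane. It had the most counts of any kinesin. Its levels were 134 and 248 CPM in the GV young control oocytes, 80.6 and 253 in GV aged control, and 121, 104 and 142 in GV aged NMN oocytes. In MII oocytes they were 120.1, 408 and 413 CPM in young control, 228, 281 and 219 in aged control, and 152, 0 and 424 in aged NMN. The MII mean was above the GV mean in each condition, with log2 ratios of 0.54 to 0.71, and the stages overlapped in each. MII aged NMN 2 was the sole oocyte without a count.

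Kif20a and Kif20b encode the kinesin-6 relatives MKLP2 and MPP1, which act at the midzone in late division. Kif20b (chromosome 19, 34922361 to 34975745) stood in GV oocytes at 70.6 and 143 CPM (young control), 29.0 and 119.5 CPM (aged control) and 33.0, 41.0 and 124 CPM (aged NMN). In MII oocytes it was at 15.1, 118 and 239 CPM in young control, 139, 110.2 and 95.7 in aged control, and 27.7, 5.28 and 176 in aged NMN. Under the batch reading above, the 6 batch 2 oocytes ran from 95.7 to 239 CPM with a median of 133 CPM and the 10 batch 1 oocytes from 5.28 to 139 CPM with a median of 37.0 CPM. With MII aged NMN 2 and GV young control 1 both read as batch 2, that batch ran from 5.28 to 239 CPM with a median of 122 CPM. Kif20a was at 71.4 and 38.9 CPM in the GV young control oocytes, 21.3 and 58.0 in GV aged control and 20.6, 18.5 and 32.7 in GV aged NMN. It stood at 0, 40.8 and 32.5 CPM in MII young control, 25.4, 64.6 and 52.0 in MII aged control, and 0, 0 and 92.3 in MII aged NMN oocytes. Kif20a overlaps Cdc23 on the other strand, which stood at 0 to 32.7 CPM, and whether the counting used strand is not given in the sources used here.

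Kif4 (chromosome X, 100625737 to 100727214), the chromokinesin that shapes chromosome arms and the midzone together with PRC1, was the steadiest of the abundant members. It was at 83.3 and 124 CPM in the GV young control oocytes, 79.9 and 134 in GV aged control, and 76.9, 116 and 100.1 in GV aged NMN oocytes. It stood at 41.3, 91.5 and 74.9 CPM in MII young control, 87.4, 140.0 and 100.4 in MII aged control, and 0, 91.3 and 76.6 in MII aged NMN oocytes. Apart from MII young control 1 and MII aged NMN 1, each oocyte lay between 74.9 and 140.0 CPM. Pdzd11, on the other strand at the same locus, was at 0 to 307 CPM, so a part of these counts cannot be assigned with certainty.

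Kif14, which acts with citron kinase in cytokinesis, stood in GV oocytes at 62.1 and 19.9 CPM (young control), 33.4 and 36.6 CPM (aged control) and 23.4, 28.0 and 26.2 CPM (aged NMN). It was at 0, 42.4 and 64.6 CPM in MII young control, 54.1, 49.9 and 36.0 in MII aged control, and 0, 0 and 12.2 in MII aged NMN oocytes. The 3 MII aged NMN oocytes lay below the 3 MII aged control oocytes, with a log2 ratio of -3.23, and below the GV aged NMN oocytes, with a ratio of -2.41.

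Kif11 (chromosome 19, 37376403 to 37421859) encodes Eg5, the bipolar motor that slides microtubules apart and keeps the spindle bipolar. It was at 7.74 and 47.8 CPM in the GV young control oocytes, 3.51 and 30.7 in GV aged control, and 14.0, 7.88 and 8.86 in GV aged NMN oocytes. In MII oocytes it was at 1.26, 21.5 and 29.6 CPM in young control and 28.2, 24.1 and 16.0 in aged control. It had no count in any of the 3 MII aged NMN oocytes and had counts in each of the other 13. Against the level of 3 counts over that group, MII aged NMN was at least 67.8-fold lower than MII aged control (22.8 ± 6.20 CPM, 300 counts) and at least 30.5-fold lower than GV aged NMN (10.2 ± 3.27 CPM, 113 counts). The batch 2 oocyte of the group was at 0 as were the batch 1 oocytes. Its share of mitochondrial counts was 6.18%, and it held 7725 genes with a count, the fewest after MII aged NMN 1 and 2. The part of low gene numbers in these zeros was not tested. The share of all tested genes at 0 in this group is not given here.

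**Figure D3:**
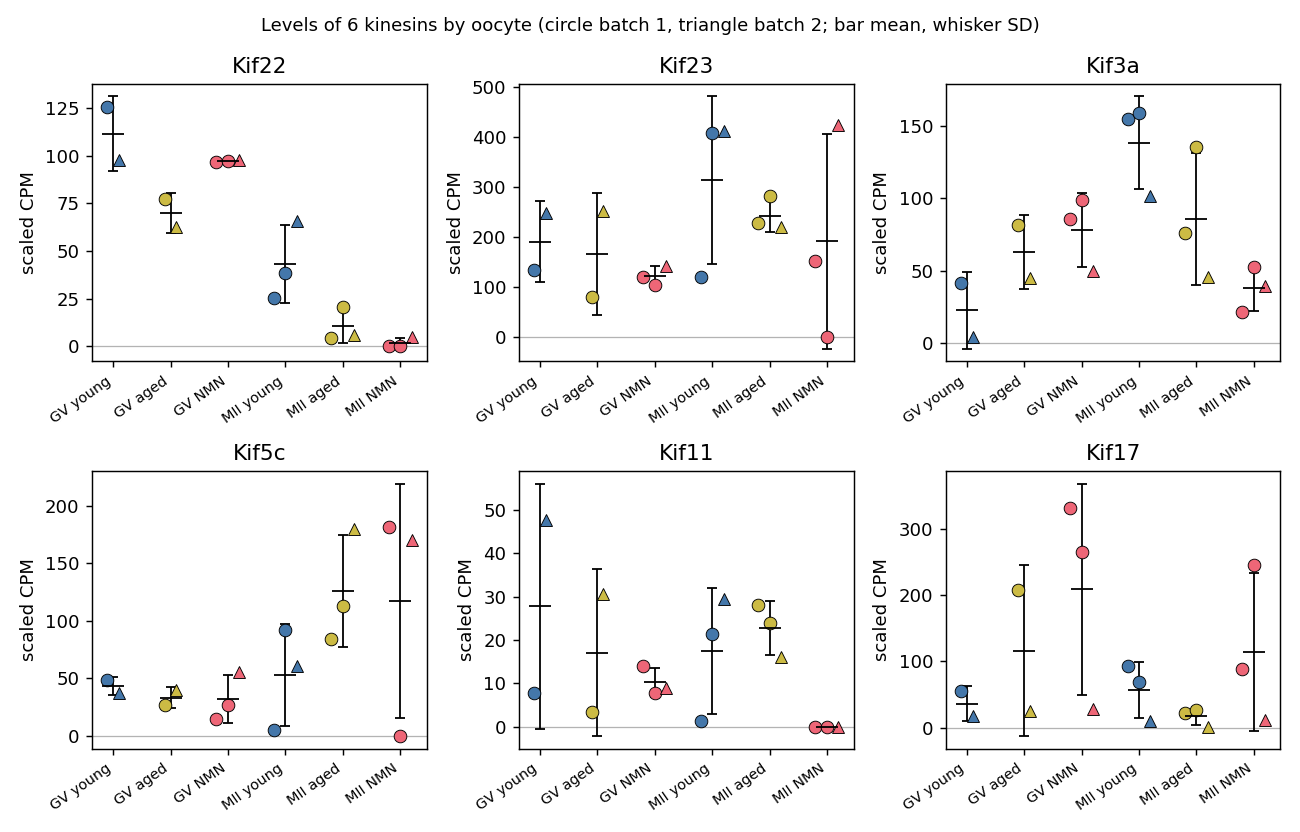
Scaled CPM of 6 kinesins in each oocyte (points; circles batch 1, triangles batch 2), with the group mean (bar) and SD (whisker), in the 6 groups from GV young to MII NMN. Kif22 is lower in MII than in GV oocytes of each condition, Kif11 is at 0 in all MII NMN oocytes, and Kif17 is lowest in each group in the oocyte drawn as a triangle; MII aged NMN 2 and GV young control 1 are drawn as batch 1.

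Kif18a, the motor that dampens chromosome movements at microtubule plus ends, was at 19.1 and 14.4 CPM in the GV young control oocytes, 5.44 and 29.3 in GV aged control, and 15.8, 6.25 and 15.8 in GV aged NMN oocytes. It stood at 26.6, 26.0 and 93.6 CPM in MII young control, 7.58, 41.3 and 7.28 in MII aged control and 11.5, 0.311 and 21.6 in MII aged NMN. The young MII oocytes lay above the young GV oocytes, with a log2 ratio of 1.49, which was 0.62 without MII young control 2-1. Mettl15, which overlaps Kif18a on the other strand, was at 0 to 16.4 CPM.

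The kinesin-13 genes Kif2a and Kif2c encode motors that take microtubules apart, Kif2c (MCAK) mainly at centromeres. Kif2a stood in GV oocytes at 27.8 and 37.9 CPM (young control), 10.5 and 21.6 CPM (aged control) and 5.95, 5.44 and 6.16 CPM (aged NMN). The GV aged NMN oocytes all lay below the GV aged control oocytes, with means of 5.85 ± 0.372 and 16.1 ± 7.85 CPM and a log2 ratio of -1.32. In MII oocytes Kif2a was at 23.3, 39.6 and 329 CPM in young control, 33.8, 25.8 and 10.9 in aged control and 42.7, 0 and 15.0 in aged NMN. The value of 329 CPM in MII young control 2-1 set the mean of its group, and without that oocyte the log2 ratio of MII over GV young controls went from 1.96 to -0.064. Cumulus markers summed to 326 CPM in that oocyte, 148 and 31.8 CPM in the other MII young controls, and 0 to 85.8 CPM elsewhere, and their part in the value was not tested. Dimt1, on the other strand at Kif2a, was at up to 79.9 CPM.

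Kif2c was at 50.5 and 0.261 CPM in the GV young control oocytes, 33.7 and 31.0 in GV aged control, and 31.6, 41.0 and 53.5 in GV aged NMN oocytes. In MII oocytes it was at 8.38, 29.6 and 33.3 CPM in young control, 23.8, 30.1 and 36.4 in aged control, and 0, 0 and 58.2 in aged NMN. GV young control 2-2 thus held 1 count of Kif2c. Kif2b, the third gene of this subfamily, had no count.

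Kifc1 encodes HSET, a minus-end motor that helps to focus spindle poles. Its GV levels were 34.6 and 5.75 CPM (young control), 19.7 and 30.0 CPM (aged control) and 14.4, 27.2 and 5.01 CPM (aged NMN). It was at 3.35, 29.8 and 18.0 CPM in MII young control, 0.705, 11.8 and 38.9 in MII aged control and 0, 0 and 16.9 in MII aged NMN. Neighbouring oocytes of a group differed as much as the groups did. Its close copy Kifc5b took up to 82 counts in an oocyte (21.1 CPM in GV young control 1), so reads shared by these copies leave the level of Kifc1 uncertain.

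The other spindle members were low. Kif24, a centriolar kinesin, had group means of 0 to 15.8 CPM and no count in the MII aged NMN oocytes. Kif15, which can hold the spindle bipolar beside Eg5, reached 13.4 CPM in MII young control 1 and had counts in 7 oocytes. Kif18b, which shortens astral microtubules, had counts in 5 oocytes and reached 6.52 CPM.

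Among the 19 genes listed as transport kinesins, 12 passed the filter, and Kif3a was the most abundant of them per length in MII oocytes. Kif3a (ENSMUSG00000018395, chromosome 11, 53567379 to 53601967) encodes a motor subunit of heterotrimeric kinesin-2, the anterograde motor of cilia and of some vesicles. It was at 41.3 and 3.92 CPM in the GV young control oocytes, 81.3 and 44.8 in GV aged control and 86.1, 99.0 and 49.7 in GV aged NMN oocytes. It stood at 155, 159 and 101 CPM in MII young control, 76.1, 135 and 45.8 in MII aged control and 21.8, 52.5 and 39.7 in MII aged NMN oocytes. In young controls all MII oocytes lay above all GV oocytes, with means of 138 ± 32.1 and 22.6 ± 26.4 CPM, 6.13-fold apart, and a log2 ratio of 2.56. The GV aged control oocytes also lay above the GV young control oocytes, by 2.79-fold in the means, and the log2 ratio of 1.44 was 0.61 without GV young control 2-2.

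The partner subunits of Kif3a did not reach its level. Kif3b, the second motor of the complex, was at 9.85, 18.9 and 18.2 CPM in MII young control, 24.3, 7.27 and 3.27 in MII aged control, 0 to 5.98 in the GV oocytes, and without a count in MII aged NMN. In TPM, which allows genes to be compared, Kif3b averaged 3.79 ± 2.36 against 155 ± 32.6 for Kif3a in MII young controls. Kif3c, which can take the place of Kif3b, had 2 counts in all, and Kifap3, the cargo-binding subunit, had group means of 0 to 1.48 CPM.

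Conventional kinesin (kinesin-1) carries mitochondria, vesicles and mRNA granules, and in oocytes its Kif5b heavy chain has been linked to the meiotic spindle. Kif5b was at 13.7 and 37.1 CPM in the GV young control oocytes, 13.2 and 11.3 in GV aged control and 6.18, 10.6 and 21.9 in GV aged NMN oocytes. It stood at 19.3, 40.1 and 108 CPM in MII young control, 30.3, 72.2 and 25.8 in MII aged control and 49.4, 0 and 51.0 in MII aged NMN. Its MII mean was above the GV mean in each condition, by 2.20-fold in young control, 3.49-fold in aged control and 2.59-fold in aged NMN. Without MII young control 2-1 the log2 ratio in young control went from 1.11 to 0.22. The stages overlapped in young control and aged NMN and did not in aged control.

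Kif5c (chromosome 2, 49619298 to 49774778), the heavy chain best known from neurons, stood in GV oocytes at 48.7 and 37.6 CPM (young control), 26.9 and 39.8 CPM (aged control) and 14.7, 26.6 and 55.4 CPM (aged NMN). It was at 4.82, 92.3 and 60.9 CPM in MII young control, 84.4, 113 and 179.7 in MII aged control and 182, 0 and 170.2 in MII aged NMN. In aged controls each MII oocyte lay above each GV oocyte, with means of 126 ± 48.9 and 33.4 ± 9.17 CPM and a log2 ratio of 1.88. MII aged NMN 1, where 8 of the 17 named kinesins had no count and only 6444 genes of any kind had one, held 182 CPM of Kif5c, the highest of all oocytes. Kif5a had no count.

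Kif1b, a carrier of mitochondria and synaptic vesicle precursors, was at 15.5 and 8.88 CPM in the GV young control oocytes, 12.6 and 43.0 in GV aged control, and 16.0, 28.8 and 8.09 in GV aged NMN oocytes. It stood at 36.5, 68.6 and 107 CPM in MII young control, 82.7, 39.1 and 20.4 in MII aged control, and 1.58, 0.311 and 80.7 in MII aged NMN. The young stages did not overlap, with a difference of 5.80-fold in the means. In aged control and aged NMN oocytes the stages overlapped.

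Kif17 (chromosome 4, 138250435 to 138301967), a homodimeric kinesin-2 of dendrites and cilia, differed widely within groups. In the 10 batch 1 oocytes it ran from 22.7 to 332 CPM with a median of 90.1 CPM, and in the 6 batch 2 oocytes from 1.46 to 28.5 CPM with a median of 14.4 CPM. By group it was at 54.9 and 17.5 CPM in the GV young control oocytes, 207 and 25.1 in GV aged control, and 332, 265 and 28.5 in GV aged NMN. In MII oocytes it was at 92.4, 69.5 and 10.6 CPM in young control, 22.7, 26.8 and 1.46 in aged control, and 87.8, 245 and 11.3 in aged NMN. In each group the oocyte numbered 2-1 or 2-2 was the lowest. With MII aged NMN 2 and GV young control 1 both read as batch 2, that batch ran from 1.46 to 245 CPM with a median of 21.3 CPM, and MII aged NMN 2 held the highest MII level. The means of GV aged and young controls were 3.21-fold apart, and without GV aged control 1 the log2 ratio went from 1.65 to -0.51. The log2 ratio of NMN over aged MII oocytes went likewise from 2.68 to -0.62 without MII aged NMN 1 and 2. In both cases the aged or NMN group was left with its batch 2 oocyte alone, against controls of both batches. Within batch 1 and batch 2 as first read, GV aged control was at 207 against 54.9 and at 25.1 against 17.5 CPM. MII aged NMN was at 87.8 and 245 against 22.7 and 26.8 CPM in batch 1. In batch 2 it was at 11.3 against 1.46 CPM.

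Kif13b, a vesicle carrier, stood in GV oocytes at 8.77 and 0 CPM (young control), 10.2 and 10.1 CPM (aged control) and 2.98, 7.61 and 0 CPM (aged NMN). It was at 0, 17.1 and 2.07 CPM in MII young control, 43.7, 13.0 and 7.64 in MII aged control, and 0, 0 and 2.50 in MII aged NMN. The MII aged NMN oocytes lay below the MII aged control oocytes, from 8 and 321 pooled counts (0.309 to 1.41 and 27.0 to 33.7 CPM). The other tested transport members, Kif16b, Kif21a, Kif21b, Kif26b, Kif3b and Kifc3, had group means of 0 to 15.6 CPM. Kif16b, a motor of early endosomes, had counts in 15 oocytes, while Kif26b had counts in 4. Kif13a, Kif1c and Kif26a did not pass the filter, with 59, 30 and 41 counts in all.

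Of the 5 ciliary and axonemal kinesins Kif9 alone passed the filter, with 240 counts in 9 oocytes. Kif9, which works in the sperm tail and in motile cilia, stood in GV oocytes at 22.4 and 0 CPM (young control), 1.93 and 15.0 CPM (aged control) and 1.37, 10.6 and 2.31 CPM (aged NMN). In MII oocytes it was at 0, 0 and 1.24 CPM in young control, 0, 1.25 and 6.91 in aged control and 0 in each aged NMN oocyte. Kif27 had 76 counts in all, of which 63 were in MII aged NMN 2 (19.6 CPM). Kif6 had no count, and Kif7, a regulator of Hedgehog signalling at the cilium tip, and Kif19a had 1 each. Kif28, in no role list, had 31.

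The first comparison across the family was that of stage. Kif1b, Kif20b, Kif23, Kif2a, Kif5b and Kif5c had higher means in MII than in GV oocytes in all 3 conditions, and Kif22, Kif2c, Kifc1 and Kif9 had lower means in all 3. These are 6 and 4 of the 27 tested kinesins, against 18.3 and 28.2% of all 12161 tested genes. On the TPM scale Kif20b, Kif23, Kif5b, Kif5c, Kif22 and Kif9 kept their direction in all 3 conditions. Kif2a had a TPM log2 ratio of -0.73 in aged control and Kif1b one of -0.43 in aged NMN. Kif2c was at 0.90 in young control and 0.014 in aged control, and Kifc1 at 0.59 in young control. In CPM Kif22 was the sole kinesin past 2-fold and without overlap in the same direction in all 3, as were 8.56% of genes in the lower direction.

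In young controls 8 kinesins were past 2-fold higher in MII oocytes, where 36.3% of all tested genes were, and 3 were past 2-fold lower, where 25.8% were. Without overlap between oocytes these counts were 5 and 1 (16.6 and 15.4% of all genes). The higher group was Kif15, Kif18a, Kif1b, Kif3a and Kif3b without overlap, and Kif2a, Kif5b and Kifc3 with it. The median log2 ratio was 0.27 over the 27 kinesins and 0.35 over all genes, and that of the kinesins was 0.17 within batch 1 and 0.87 within batch 2. Transport kinesins had a median of 0.56 and spindle kinesins of -0.14.

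In aged controls 5 kinesins were past 2-fold higher and 5 lower in MII oocytes, against 16.9 and 35.9% of genes. Without overlap there were 2 and 3 (8.33 and 25.9%), Kif5b and Kif5c higher, and Kif22, Kif18b and Kif21b lower. Kif18b and Kif21b were near the floor, with means of 1.91 and 2.53 CPM in GV against 0 and 0.235 CPM in MII oocytes. In GV aged control 2-1 Kif18b was at 0.492 CPM, under the floor of 0.738 CPM in that oocyte. The kinesin median was 0.39 while that of all genes was -0.29, and 18 of 27 kinesins (66.7%) had a higher mean in MII oocytes against 42.2% of genes. Within batch 1 the kinesin median was 0.62, and within batch 2, with 1 oocyte a stage, it was -0.36.

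In aged NMN oocytes 4 kinesins were past 2-fold higher and 14 lower in MII, against 16.9 and 46.7% of genes. Without overlap there were 0 and 5 (3.34 and 26.8%), namely Kif11, Kif14, Kif22, Kif24 and Kif9. The kinesin median was -1.02 and that of all genes -0.82. Within batch 1 the kinesin median was -1.71 and within batch 2 it was 0. A total of 7 tested kinesins had no count in MII aged NMN oocytes. The share of all tested genes without a count there is not given here, so this number has no background beside it. With each gene at 0 in one group set at the bound that 3 counts give, the kinesin median was again -1.02, and that of all genes was -0.87. The low gene numbers and high mitochondrial shares of MII aged NMN 1 and 2 move with this comparison, and their part in it was not tested.

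**Figure D4:**
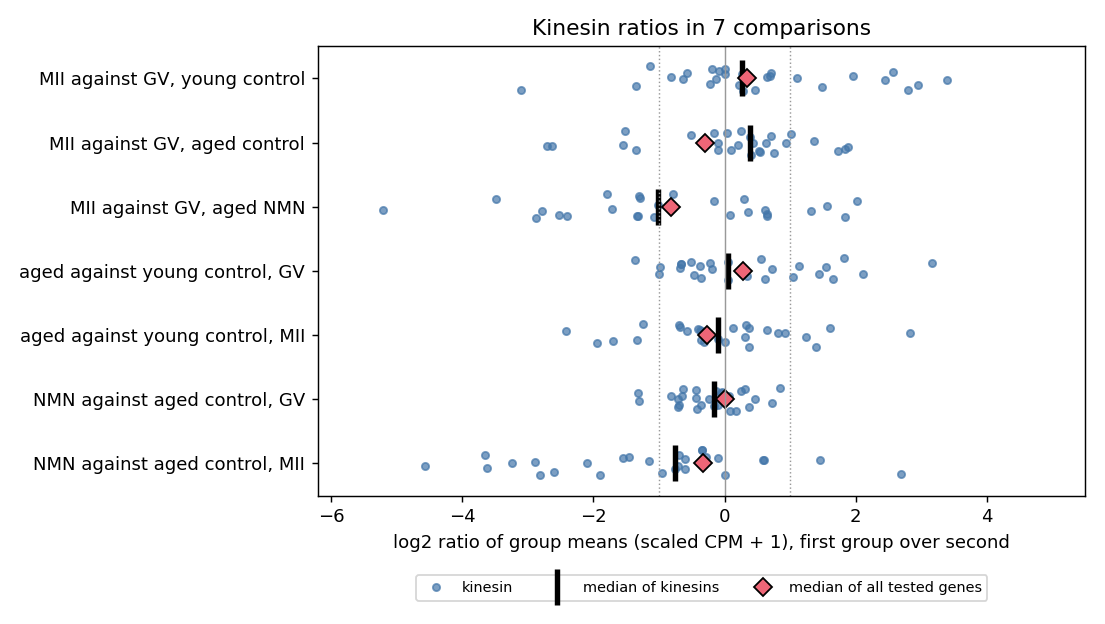
Log2 ratio of group means (scaled CPM + 1) of each of 27 tested kinesins (points) in 7 comparisons, with the kinesin median (black bar) and the median of all 12161 tested genes (diamond); dotted lines mark a 2-fold difference. The kinesin median lies above that of all genes in aged control maturation (0.39 against -0.29) and below it for NMN in MII oocytes (-0.76 against -0.33).

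Age was compared in controls at each stage. In GV oocytes 8 kinesins were past 2-fold higher in aged than in young controls and 1, Kif24, was lower, against 31.2 and 12.2% of genes, and 6 and 0 were without overlap (19.7 and 5.69%). Among the 6, Kif18b, Kif21b and Kif26b were near the floor, with means of 1.91, 2.53 and 3.30 CPM in aged against 0 CPM in young controls. Of the 8, 7 were in the list of transport kinesins, Kif26b among them. Kif3a was at 63.0 ± 25.9 against 22.6 ± 26.4 CPM. Kifc3, a minus-end motor of cell junctions, was at 16.2 and 4.43 against 0.516 and 0 CPM. With another scaling (RLE size factors) the counts were 7 higher and 3 lower, so the share of higher among them went from 88.9 to 70.0%. The transport median was 1.09 and the spindle median -0.21, with 0.29 for all genes. The median over all kinesins was 0.05, which was -0.20 within batch 1 and 0.56 within batch 2. GV young control oocytes held fewer genes with a count (10079 and 8825) than GV aged controls (13816 and 11736), and the sum of immune markers was 0 and 2.84 CPM against 237 and 9.84 CPM; the part of either in the transport difference was not tested.

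In MII oocytes 4 kinesins were past 2-fold higher in aged than in young controls and 5 lower, against 8.45 and 22.6% of genes. Kif22 alone was without overlap, in the lower direction (5.39% of genes), and none in the higher (1.76%). In TPM the Kif22 levels of these groups overlapped, with a log2 ratio of -1.83. The higher ones were Kif13b, Kif26b, Kif5c and Kif9, and the other lower ones Kif15, Kif17, Kif18a and Kif2a. The kinesin median was -0.11 and that of all genes -0.27. Within batches the kinesin median was 0.42 and -0.87, so its direction differed between batch 1 and batch 2.

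NMN was compared with aged controls at each stage. In GV oocytes no kinesin was past 2-fold higher with NMN, where 8.53% of genes were, and 2 were lower, Kif2a and Kif13b, where 12.3% were. Both were without overlap (5.39% of genes), while 2.61% of genes were higher without overlap. Kif13b averaged 3.53 ± 3.84 against 10.1 ± 0.0739 CPM. The median was -0.17 for kinesins and 0.01 for all genes, and within batches that of the kinesins was 0.12 and -0.80.

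In MII oocytes 2 kinesins were past 2-fold higher with NMN, Kif17 and Kif21b, and 12 were lower, against 14.7 and 33.1% of genes. Without overlap there were 0 and 4 (1.31 and 11.3%), Kif11, Kif13b, Kif14 and Kif3b. The kinesin median was -0.76 against -0.33 for all genes, and 22 of 27 kinesins had a lower mean, as did 59.7% of all genes. None of the 14 tested spindle kinesins had a higher mean with NMN, against 32.3% of all genes. MII aged NMN 1 and 2, with their 6444 and 5679 genes with a count and 43.0 and 33.2% of mitochondrial counts, are in this comparison too, and the part of this in it was not tested. Within batch 1 the kinesin median was -1.96, and within batch 2, with 1 oocyte each, it was 0. With MII aged NMN 2 read as batch 2 these values were -2.86 and -0.049, and without MII aged NMN 1 and 2 the median was -0.62. In the batch 2 pair Kif20a was at 92.3 with NMN and 52.0 CPM without, Kif2c at 58.2 and 36.4, Kif23 at 424 and 219, and Kif11 at 0 and 16.0 CPM.

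Proteins that work with kinesins were described from fixed lists. Of 20 spindle partners, all tested, 9 were past 2-fold higher and 1 lower in MII than in GV young controls (36.3 and 25.8% of all genes), with a median of 0.70 (0.35 for all genes). Plk1, the polo-like kinase of spindle assembly, was at 95.3 ± 26.2 against 24.2 ± 10.6 CPM, and Racgap1, the centralspindlin partner of Kif23, at 72.3 ± 13.3 against 24.8 ± 1.88 CPM. In aged controls 5 were higher and 2 lower (16.9 and 35.9% of all genes), with a median of 0.27 against -0.29, and with Prc1, the microtubule bundler of the midzone, at 514 ± 107 against 185 ± 36.2 CPM and Ect2, the exchange factor that Racgap1 activates, at 141 ± 37.6 against 44.8 ± 14.6 CPM. With NMN 3 were higher and 9 lower, shares near the 16.9 and 46.7% of all genes, with a median of -0.87 against -0.82. The highest ratio with NMN was that of Cenpe, a kinetochore kinesin not named as a Kif gene, at 279 ± 77.9 against 117 ± 47.1 CPM. In MII oocytes NMN against aged control gave 0 higher and 11 lower (14.7 and 33.1% of all genes), with a median of -1.11 against -0.33, among them Haus6 of the augmin complex at 1.70 ± 2.60 against 25.2 ± 5.54 CPM and Aurkc, the germ cell Aurora kinase, at 118 ± 107 against 470.3 ± 327 CPM. With age 5 were higher and 0 lower in GV oocytes (31.2 and 12.2% of all genes), with a median of 0.43 against 0.29. In MII oocytes 1 was past 2-fold each way (8.45 and 22.6%), with a median of -0.0022 against -0.27.

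Kinesin light chains and cargo adaptors were mostly low, and 10 of the 15 found in the tables passed the filter. Their medians were 1.12, -0.76 and -1.37 for stage in young control, aged control and aged NMN, against 0.35, -0.29 and -0.82 for all genes. Past 2-fold, 6, 0 and 0 of the 10 were higher (36.3, 16.9 and 16.9% of all genes) and 1, 4 and 6 lower (25.8, 35.9 and 46.7%). Rhot1, the mitochondrial receptor that holds kinesin through Trak proteins, was at 112 ± 109.8 CPM in MII and 55.1 ± 11.5 CPM in GV young controls. Trak1, which links it to kinesin, was at 23.6 ± 4.86 and 9.45 ± 5.23 CPM.

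Cytoplasmic dynein and dynactin move the opposite way along microtubules. Over 23 tested genes the medians for stage were -0.63, -1.58 and -1.03 in young control, aged control and aged NMN, beside 0.27, 0.39 and -1.02 for kinesins and 0.35, -0.29 and -0.82 for all genes. Past 2-fold, 7, 0 and 2 of the 23 were higher (36.3, 16.9 and 16.9% of all genes) and 9, 13 and 12 lower (25.8, 35.9 and 46.7%). The dynein light chain gene Dynlrb1 was at 27.7 ± 9.30 in MII against 651 ± 147 CPM in GV young controls, 57.3 ± 27.9 against 383 ± 80.7 in aged controls and 13.0 ± 21.5 against 536 ± 152 with NMN. Dynll1, another light chain, was at 40.5 ± 43.4 against 328 ± 148 CPM in young controls. Dynlt3, of a further light chain family, went the other way in young controls, at 63.5 ± 45.8 against 1.80 ± 2.55 CPM. For age the medians were -0.12 in GV and -0.24 in MII oocytes (0.29 and -0.27 for all genes), and for NMN -0.32 and -0.021 (0.0064 and -0.33).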

How the data were processed

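Single oocytes were sequenced, and 18 libraries were deposited. Per the submitters' processing notes the authors used Cufflinks, TopHat2 2.1.1, FastQC 0.11.8 and Trim Galore 0.4.5, naming builds mm10 and GRCm38; which step made the tables is not given in the sources used here. Per the file headers the deposited tables give an expected count per gene, not normalised, and TPM, scaled by the authors for length and library. GV young control 1 and 2-1 were identical and counted as 1 oocyte. GV aged control 2-2, with 5009 counts and none in a kinesin, fell under the minimum of 100000 and was left out. Expected counts were rounded, filtered with filterByExpr of edgeR 4.0.16 (minimum count 10, by group, leaving 12161 genes), scaled with TMM in R 4.3.3 and compared as log2 ratios of group means + 1 CPM; folds are ratios of the means themselves. The calculation was tested on Poisson counts simulated from mean levels with known folds. These had no spread between oocytes and no batches, so the test checks only the arithmetic of the ratios. Symbols and coordinates are from GENCODE vM21 (46488 genes matched). Members with a group mean of 20 CPM were named in every oocyte, with up to 3 partner genes per list, direction and comparison; Kif3b, Kif9 and Kifap3 were added after their values were seen. The members and lists were chosen with earlier results of these data known. Groups hold 2 to 3 oocytes, which limits precision. Other scalings, TPM, no filter, 5 CPM added, single batches and left-out oocytes were tried.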

Additional observations from a re-analysis of the deposited data

How the results depend on the processing

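No paired analysis was possible because the results come from no test; the batch is what a number shares between groups, and ratios within each batch stand beside the pooled ones. Groups of 2 to 3 oocytes with no named animals limit every ratio, and a floor of 3 counts lay between 0.468 and 1.19 scaled CPM. The kinesin medians moved by less than the spread between oocytes under each alternative run, but their direction was not always kept. They ran over 0 to 0.87 for stage in young control, -0.36 to 0.94 in aged control and -2.15 to 0 in aged NMN. For age they ran over -0.50 to 0.61 in GV and -0.87 to 0.42 in MII oocytes. For NMN they ran over -0.80 to 0.30 in GV and -2.86 to 0 in MII oocytes. The sign was kept in 10 of 13 alternatives for stage in young control and in aged control, and in 14 of 16 in aged NMN. It was kept in 10 of 13 and 8 of 13 for age in GV and MII oocytes. For NMN it was kept in 11 of 13 and 15 of 16. Counts past 2-fold stayed within 1.5 times of the main count under 130 alternatives and moved further under 64. For stage, higher and lower, they ran from 6 to 13 and 1 to 6 in young control (main 8 and 3), 3 to 12 and 2 to 7 in aged control (5 and 5), and 3 to 9 and 5 to 19 in aged NMN (4 and 14). For age they ran from 3 to 14 and 0 to 8 in GV (8 and 1) and 2 to 7 and 3 to 12 in MII (4 and 5). For NMN they ran from 0 to 6 and 0 to 9 in GV (0 and 2) and 0 to 4 and 6 to 19 in MII oocytes (2 and 12). RLE size factors moved the median of all genes by -0.24 for stage in young control, and library totals by -0.31 for NMN in MII oocytes.

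Alternatives were run for 32 single kinesin ratios, not for every member and comparison. Outside these, some directions differed on the TPM scale. For example, the log2 ratio of stage in young control went from -0.64 to 0.25 for Kif11. It went from -0.20 to 0.76 for Kif14 and from -0.57 to 0.22 for Kif4. Among the 32, single kinesins changed direction as follows, and the cause was not tested. Within batch 2 the log2 ratio of stage was -0.36 for Kif13b in aged control and 0.12 for Kif2c in aged NMN; the latter was 0.51 with MII aged NMN 1 and 2 both left out, where Kif17 for NMN in MII oocytes was -0.62. That setting, and the reading of GV young control 1 as batch 2, were chosen after seeing the data; the second gave -0.51 for Kif17 with age in GV oocytes within batch 2. Kif1b with age in GV oocytes was -0.27 within batch 1. Kif3a for NMN in MII oocytes was 0.0088 within batch 2 with MII aged NMN 2 read as batch 2. With each oocyte left out in turn, Kif17 with age in GV oocytes ran from -0.51 to 2.67 and Kif2a for stage in young control from -0.064 to 2.45. Of the other alternatives for single kinesins, 412 stayed within the spread and 28 moved beyond it without a change of direction. Without a single oocyte some ratios came within 2-fold. Without MII young control 2-1, age in MII oocytes gave -0.47 for Kif18a (from -1.33) and -0.40 for Kif2a (from -2.42). Without MII aged control 1, Kif13b gave 0.61 for age in MII oocytes (from 1.60), without MII young control 1, Kif5c gave 0.71 (from 1.24), and without GV aged control 2-1, Kif1b gave 0.06 for age in GV oocytes (from 1.13).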
